A study of Mus musculus with 16 samples.

Results

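The right medial prefrontal cortex (mPFC) of mice that became susceptible to chronic social defeat was set against the right mPFC of control mice. The comparison rests on 5 of the 16 microarrays of the study, 3 of susceptible right mPFC and 2 of control right mPFC, chosen by their labels. Susceptible mice had been defeated repeatedly by aggressive CD-1 mice and afterwards avoided an unfamiliar mouse in a social interaction test. Control mice were of the same strain and sex, C57BL/6 males in the labels and C57BL/6 J in the methods, were housed in similar cages and were never defeated. Resilient mice, used below for comparison, went through the same defeat and kept approaching the unfamiliar mouse, and their right mPFC was measured on 3 arrays. The left mPFC was measured on 3 susceptible, 3 resilient and 2 control arrays. The labels name no transgene and no drug.

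The mPFC is a frontal cortical area that takes part in emotional control and in the response to stress. Its pyramidal neurons lie in layers with their own marker genes: upper layer neurons connect cortical areas, layer 5 neurons project to subcortical targets, and layer 6 neurons project mainly to the thalamus. Myelin is made around axons by oligodendrocytes, and the brain surface is covered by meninges with their own fibroblasts. When neurons fire, immediate early genes such as Fos and Arc are transcribed within minutes.

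MouseRef-8 BeadChips read the RNA of each gene as the fluorescence of probes on beads. The labels give 7 mice per group. The study's methods give the same number for susceptible mice only and a larger one for control and resilient mice. Equal amounts of RNA from single mice were pooled before hybridization, so p values measure the spread between arrays of pooled RNA and not between mice. The methods speak of triplicate arrays and of biological replicates, but do not say whether the arrays of a group hold separate pools. After log2 transformation and quantile normalization, 8419 genes detected on all 16 arrays were tested with limma in 1 model of 6 groups. Genes with a p below 0.05 after Benjamini-Hochberg adjustment are referred to as called. Values below are normalized signals on the linear scale, in arbitrary units with an unsubtracted background, in the order of the replicates. Changes are log2 differences, susceptible right minus control right, with the standard error of the fit. Before normalization the mean signal was 402 to 502 on the susceptible right arrays and 505 to 567 on the control right arrays, and 13843 to 14261 and 13872 to 14182 probes were detected. Both control arrays and susceptible replicate 1 stand among the first 8 arrays of the signal table, and susceptible replicates 2 and 3 among the last 8.

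The right mPFC of susceptible mice differed from that of control mice in 411 of the 8419 genes (4.88%), with 194 genes higher (2.3%) and 217 lower (2.58%). Genes of deep cortical layers, oligodendrocytes and red blood cells were among those that rose. Genes of layer 2/3, meningeal fibroblasts and neuronal activity were among those that fell. The changes were moderate in size: the median absolute log2 change was 0.31 among the called genes and 0.08 among all genes, and 33 called genes changed by at least 0.5, 12 upward and 21 downward. No gene changed by 1 or more. In 409 of the 411 called genes the susceptible and control arrays did not overlap, as was so for 35.9% of all genes tested. The median change of all genes was 0.00. Beside the 4.88% of all genes, the share of measured members called was 83.3% in the layer 2/3 list and in the meningeal list, 45.5% in the layer 6 list and in the immediate early list, and 52.9% in the oligodendrocyte list. It was 20% among glutamate receptor genes and 16.7% among GABA receptor genes and among vesicle genes. For voltage-gated channel genes it was 2.78% and for ribosomal genes 1.92%. The layer 2/3 and meningeal lists had only 6 measured members each. All lists were written with earlier results of these data known. Some hold genes that the study had named from these arrays, such as Cux2, Ctgf, Mbp and Igf2, so the shares are not independent of the data.

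**Figure D1:**
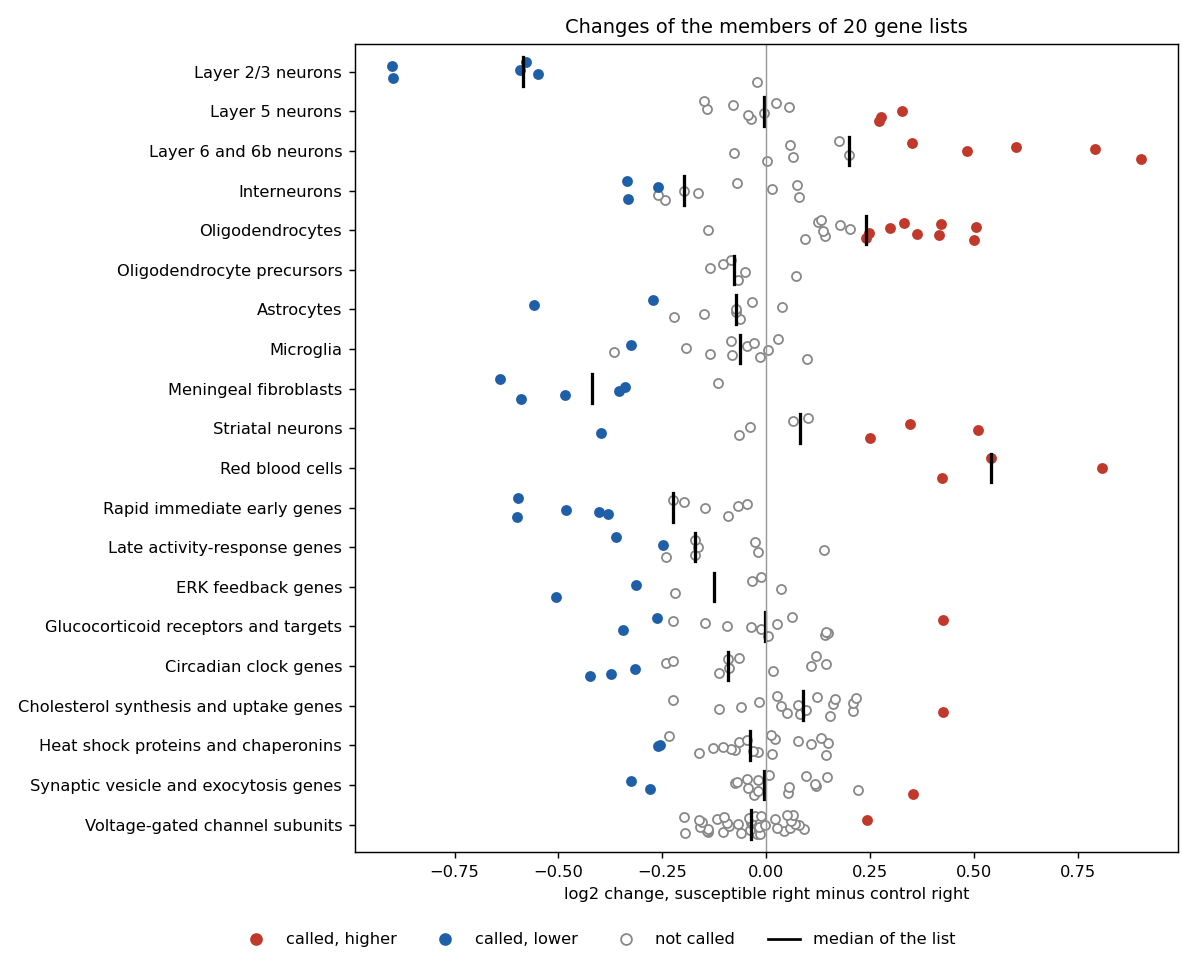
Each point is 1 measured member of a gene list (rows), placed by its log2 change in susceptible right minus control right mPFC on the horizontal axis. Filled points were called at an adjusted p below 0.05 (red higher, blue lower), open points were not, and the black bar is the median of the list. The layer 2/3 and meningeal lists lie left of 0 with medians of -0.59 and -0.42, and the layer 6 and oligodendrocyte lists lie mostly right of it with medians of 0.20 and 0.24.

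Layer 2/3 genes were lower in susceptible mice. The list had 11 genes on the array, of which 6 were detected on every array. Of these 6 measured members 5 fell, none rose, and the median change was -0.59. The largest falls were those of Cux2, which encodes a homeodomain transcription factor of upper layer neurons, and Tnnc1, which encodes the calcium-binding subunit of troponin. Cux2 gave signals of 298, 385 and 327 in susceptible mice, against 604 and 644 in control mice. All 3 susceptible arrays lay far below both control arrays, with susceptible replicate 2 nearest to them. The log2 change of Cux2 was -0.90 ± 0.09 (adjusted p = 2.16e-07). Tnnc1 gave 395, 368 and 348 in susceptible mice, against 721 and 659 in control mice, a log2 change of -0.90 ± 0.08 (adjusted p = 3.75e-08). Wfs1 encodes wolframin, a protein of the endoplasmic reticulum that marks superficial pyramidal neurons. Its signals were 326, 359 and 334 in susceptible mice and 507 and 505 in control mice, again without overlap, and its change was -0.58 ± 0.08 (adjusted p = 4.88e-05). Stard8 changed by -0.59 ± 0.08 (adjusted p = 1.29e-05). Nectin3, a cell adhesion gene, changed by -0.55 ± 0.07 (adjusted p = 8.68e-06), and a dimmer detected probe of it by -0.17 (unadjusted p = 0.0401). Cux1, the paralog of Cux2, had a log2 change of -0.02 ± 0.09 and was not called. Each of the 5 falls was still called when any 1 of the 5 right arrays was left out and with table position as a term. In bulk tissue, fewer cells of a type and less RNA per cell cannot be told apart.

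Deep layer genes moved the other way. Of 11 measured genes of layers 6 and 6b, 5 rose and none fell, with a median of 0.20. Ctgf, which encodes a secreted matricellular protein and marks layer 6b, had the largest rise of all genes tested. Its signals were 2155, 2297 and 2201 in susceptible mice, against 1239.7 and 1135 in control mice. The lowest susceptible array stood well above the higher control array. The log2 change of Ctgf was 0.90 ± 0.07 (adjusted p = 1.36e-09). Rprm encodes Reprimo, a p53-induced inhibitor of the cell cycle, and is used as a marker of layer 6. It gave 2948, 3159 and 3282 in susceptible mice, against 1827 and 1783 in control mice, a change of 0.79 ± 0.09 (adjusted p = 3.75e-06). Sulf1, an enzyme that removes sulfate groups from heparan sulfate, gave 523, 549.7 and 523 in susceptible mice and 355 and 346 in control mice. Its change was 0.60 ± 0.07 (adjusted p = 3.75e-06). The neurotensin receptor gene Ntsr1 and the corepressor gene Tle4, both markers of corticothalamic neurons, changed by 0.48 ± 0.08 and 0.35 ± 0.07. Tbr1 and Foxp2, transcription factors of the same layer, had changes of 0.06 ± 0.08 and 0.06 ± 0.08 and were not called. With control replicate 1 left out 4 of the 5 rises were called, and with any other right array left out all 5.

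Among 11 layer 5 genes 3 rose, none fell, and the median was -0.004. The risers were Fezf2 and Bcl11b, transcription factors of subcerebral projection neurons, and Crym, which encodes a thyroid hormone-binding protein. Their changes were 0.33 ± 0.08, 0.27 ± 0.08 and 0.28 ± 0.08. With the position of the arrays in the table as a term, Fezf2 and Bcl11b were no longer called (adjusted p = 0.0721 and 0.125). None of the 3 was called without control replicate 2, and 1 without any other right array. None of 5 pan-excitatory genes was called, and their median was -0.08.

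**Figure D2:**
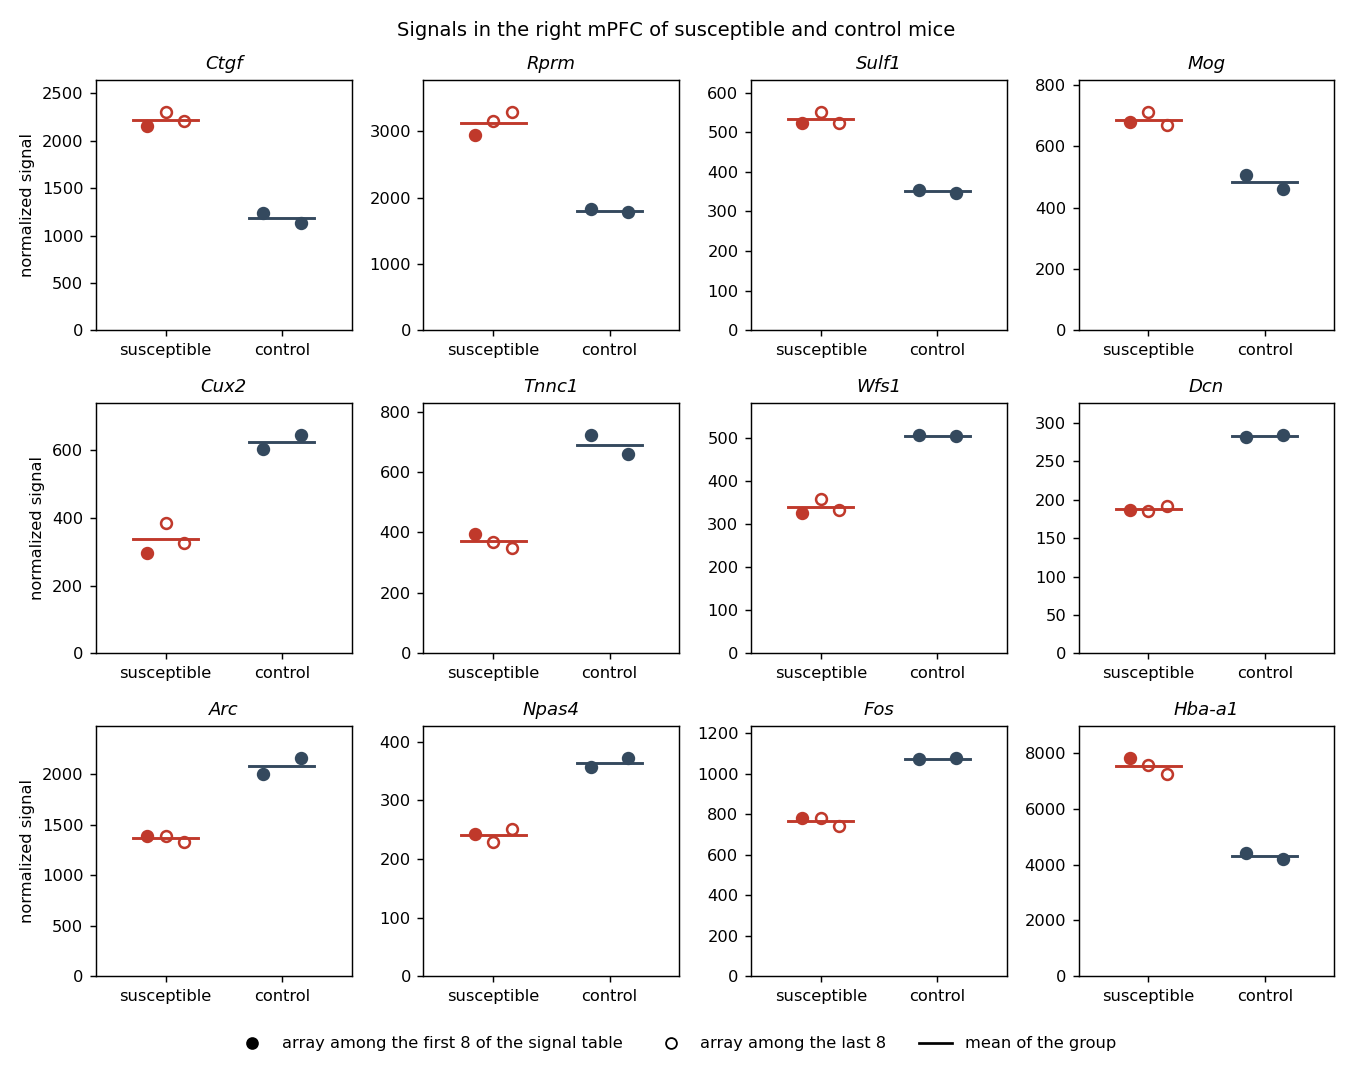
Normalized signals (vertical axis, linear scale from 0) of 12 genes on the 3 susceptible right arrays (red) and the 2 control right arrays (dark blue), with the group mean as a bar. Filled points are arrays among the first 8 of the signal table, open points arrays among the last 8. In every panel the groups are separate, and the filled susceptible point lies with the open ones, as for Ctgf, where it is 2155 beside control arrays of 1239.7 and 1135. The 12 genes were picked from the called genes, so the separation comes from the choice of genes.

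Of 17 oligodendrocyte genes 9 rose and none fell, with a median of 0.24. The leading members were Mog, a myelin surface glycoprotein gene, and Anln, which encodes the actin-binding protein anillin. Mog gave 678, 710.1 and 668 in susceptible mice, against 507 and 460.2 in control mice, a change of 0.51 ± 0.07 (adjusted p = 5.51e-05). Anln gave 546, 520.5 and 521 in susceptible mice, against 352 and 398 in control mice, a change of 0.50 ± 0.08 (adjusted p = 0.000279). The groups did not overlap in either gene. Prr18, whose product is little described, gave 1687, 1612 and 1472 in susceptible mice and 1217 and 1156 in control mice, a change of 0.42 ± 0.08. Smaller rises were those of Fa2h, which makes hydroxylated myelin lipids (0.36 ± 0.07), the transferrin gene Trf (0.33 ± 0.08), the myelin gene Mobp (0.30 ± 0.08), the sulfatide-synthesis gene Gal3st1 (0.25 ± 0.07) and the tight junction gene Cldn11 (0.24 ± 0.07). Mbp, which encodes the major myelin basic protein, gave 18763, 18515 and 17842 in susceptible mice and 15773 and 16176 in control mice. These arrays did not overlap, but the change of 0.20 ± 0.06 missed the threshold (adjusted p = 0.072). Mag and Cnp, also myelin genes, had changes of 0.14 ± 0.08 and 0.14 ± 0.10 and were not called, and Mal was the only member below 0 (-0.14 ± 0.09). With table position as a term, 6 of the 9 remained called, and Mobp, Gal3st1 and Cldn11 did not. With control replicate 2 left out 3 were called, and with control replicate 1 left out 6. Without susceptible replicate 1, 2 or 3 there were 6, 6 and 7. Gal3st1 and Cldn11 lost their calls without any 1 right array, and kept them in 3 and 8 of 18 alternatives. None of 6 precursor genes was called, and their median was -0.08.

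Meningeal fibroblast genes fell with the layer 2/3 genes. Of 15 listed genes, all on the array, 6 were detected on every array, and Col1a1, Col1a2, Col3a1 and Lum were not. Of the 6 measured members 5 fell and none rose, with a median of -0.42. Their summed signal was 1468 to 1532 in susceptible mice, against 1938 to 1952 in control mice. Slc13a4, a dim sulfate transporter gene, gave 109.8, 101 and 101 in susceptible mice, against 168 and 157 in control mice. Its change was -0.64 ± 0.08 (adjusted p = 5.21e-06), and it lay between -1.35 and -0.39 over the alternative settings. Dcn, the gene of the matrix proteoglycan decorin, gave 187, 185 and 192 in susceptible mice, against 282 and 284 in control mice. The spread within each group was small, and the change was -0.59 ± 0.07 (adjusted p = 4.65e-06). A dimmer probe of Dcn changed by -0.26 (unadjusted p = 0.00101). Gjb2, a dim connexin gene, changed by -0.48 ± 0.07 (adjusted p = 4.98e-05), and by -0.88 to -0.31 over the alternative settings. Igf2, a growth factor gene, gave 585, 643 and 629 in susceptible mice and 789.7 and 789.7 in control mice, a change of -0.35 ± 0.07 (adjusted p = 0.0042). Igfbp2, which encodes a binding protein of insulin-like growth factors, changed by -0.34 ± 0.06, and Mgp, at -0.12 ± 0.07, was not called. Ptgds, the prostaglandin D synthase gene, was not on the list, was picked after its value was seen and is not counted among the 5. It gave 814, 938 and 979.7 in susceptible mice and 1424 and 1230.2 in control mice. Its change was -0.54 ± 0.10 (adjusted p = 0.00167). With control replicate 2 left out 3 of the 5 listed falls were called, and with control replicate 1 left out 4. These genes mark tissue at the brain surface, and the part of that tissue in the fall of the layer 2/3 genes was not tested.

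Red blood cell genes were higher in susceptible mice: all 3 measured members rose, and their summed signal was 7919 to 8417 in susceptible mice, against 4643 to 4825 in control mice. Hba-a1, an alpha globin gene, gave 7806, 7581 and 7239.9 in susceptible mice, against 4416 and 4198 in control mice. The groups lay far apart, and the change was 0.81 ± 0.07 (adjusted p = 1.07e-07). The beta globin gene Hbb-bt changed by 0.54 ± 0.11 and Alas2, the first enzyme of heme synthesis in red cell precursors, by 0.42 ± 0.10. Without control replicate 1 Hba-a1 alone was called, and without control replicate 2 Hba-a1 and Hbb-bt. None of 3 leukocyte genes was called, with changes of -0.10 to -0.04. Globin copies are nearly identical, so signals of Hba-a1 and Hbb-bt may include other chains. The part of blood left in the tissue was not tested.

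Genes of other cell types changed in both directions. Among 11 interneuron genes 3 fell and none rose, with a median of -0.20. Vip, a neuropeptide gene of disinhibitory interneurons, gave 1246, 1243 and 1267 in susceptible mice, against 1685 and 1482 in control mice, a change of -0.34 ± 0.07 (adjusted p = 0.00374). Cck, which encodes cholecystokinin and is also expressed by pyramidal neurons, changed by -0.33 ± 0.07. Reln, the gene of the secreted protein reelin, changed by -0.26 ± 0.07. The susceptible arrays lay below both control arrays in all 3 genes. With control replicate 1 left out only Cck was called of the 3, and with control replicate 2 left out only Vip. Gad1 at -0.16 ± 0.10, Sst at -0.07 ± 0.08 and Pvalb at 0.01 ± 0.08 were not called. Of 9 astrocyte genes 2 fell, S100b at -0.56 ± 0.07 and the glutamate transporter gene Slc1a3 at -0.27 ± 0.06, while Aqp4 and Gja1 were not called. Of 12 microglia genes 1 fell, the purinergic receptor gene P2ry12 (-0.33 ± 0.08), and it lost its call with table position as a term (adjusted p = 0.0788). None of 11 endothelial and mural genes was called. Of 8 genes of the striatal list 3 rose and 1 fell, while 5 lay above 0 and 3 below, with a median of 0.08. Their summed signals were 5124 to 5305 in susceptible mice, against 4716 to 4796 in control mice. Whether these genes report striatal tissue here was not tested. The risers were Ppp1r1b, which encodes the dopamine-regulated phosphatase inhibitor DARPP-32 (0.51 ± 0.07), Rgs9, a regulator of G protein signaling (0.35 ± 0.07), and the dopamine receptor gene Drd1 (0.25 ± 0.07). A dimmer detected probe of Ppp1r1b had a change of 0.08, with an unadjusted p of 0.335. Pdyn, the prodynorphin gene, changed by -0.40 ± 0.07. Without control replicate 2 Slc1a3, P2ry12 and Drd1 lost their calls, and without control replicate 1 Rgs9 did. P2ry12 also lost its call without susceptible replicate 1, and Drd1 without any 1 susceptible array. No choroid plexus gene was detected on every array, of 5 on the array.

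Immediate early genes were lower in susceptible mice. All 11 measured members had changes below 0, 5 were called lower and none higher, and the median was -0.22. Arc, whose product acts at synapses and in the trafficking of glutamate receptors, gave 1393, 1389 and 1331 in susceptible mice, against 1998 and 2158 in control mice. The susceptible arrays lay within a narrow range well below both control arrays, and the change was -0.60 ± 0.07 (adjusted p = 6.11e-06). Npas4, a transcription factor gene induced by calcium entry into neurons, gave 242, 229.6 and 251 in susceptible mice, against 357 and 372 in control mice, a change of -0.60 ± 0.07 (adjusted p = 4.84e-06). Fos, part of the AP-1 transcription factor, gave 784, 780.4 and 744 in susceptible mice, against 1073 and 1077 in control mice, a change of -0.48 ± 0.07 (adjusted p = 6.55e-05). The zinc finger genes Egr4 and Egr2 changed by -0.40 ± 0.08 and -0.38 ± 0.07. Egr1, of the same family, was bright in all 5 arrays, at 11051, 10411 and 11326 in susceptible mice and 11637 and 11637 in control mice, and its change of -0.09 ± 0.07 was not called. Junb at -0.20 ± 0.08, Fosb at -0.15 ± 0.08 and Jun at -0.05 ± 0.07 were not called either. With control replicate 1 left out 4 of the 5 immediate early falls were called, and with any other right array left out all 5.

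Of 9 late activity genes 2 fell, Vgf, which encodes a secreted neuropeptide precursor (-0.36 ± 0.07, adjusted p = 0.0014), and Nrn1, a neurite growth gene (-0.25 ± 0.06, adjusted p = 0.023). Bdnf, a neurotrophin gene, gave 848, 746 and 737 in susceptible mice and 932 and 900.3 in control mice. Its arrays did not overlap, but the change of -0.24 ± 0.08 was not called (adjusted p = 0.0737). Of 6 feedback genes of the ERK pathway 2 fell. They were Dusp1 and Dusp6, phosphatases that inactivate MAP kinases. Dusp1 gave 1427, 1391 and 1369.9 in susceptible mice, against 2138 and 1838 in control mice, a change of -0.51 ± 0.07 (adjusted p = 4.88e-05). Dusp6 gave 2465, 2438 and 2600.4 in susceptible mice, against 3084 and 3127 in control mice, a change of -0.31 ± 0.07 (adjusted p = 0.00772). When either control array was left out Dusp6 and Nrn1 lost their calls, and Dusp1 and Vgf kept theirs. Nrn1 also lost its call without susceptible replicate 1 or 2.

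Fos and Dusp1 are known targets of CREB, a factor that binds the cAMP response element, and the promoters of the fallen activity genes were read for it. Of the 7 called immediate early and ERK feedback genes, 5 had 1 start site in the RefSeq promoter table (GRCm38.p6). Arc was not in the table, and Egr2 had 5 start sites. The core searched was TGACG on either strand, and the full element TGACGTCA holds it once on each strand. The 250 bases before the start of Fos, Egr4, Npas4 and Dusp1 held the core at least once, and those of Dusp6 held none. Of 32851 promoter windows of this length 17.8% held the core and 1.55% the full one. Fos and Dusp1 led to the choice of the core, so the matches are not independent of that choice. Dusp6 fell too, and its window without a core is not shown. The other 4 windows are given 5′ to 3′ on the gene's strand with the core in capitals. Any link of the core to the falls was not tested.
Fos, chr12:85473640-85473889, plus strand: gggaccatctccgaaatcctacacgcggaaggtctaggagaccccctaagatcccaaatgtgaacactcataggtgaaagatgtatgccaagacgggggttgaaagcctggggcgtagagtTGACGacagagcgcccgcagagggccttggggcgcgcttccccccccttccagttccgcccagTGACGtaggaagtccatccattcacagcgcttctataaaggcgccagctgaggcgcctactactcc
Egr4, chr6:85513590-85513839, minus strand: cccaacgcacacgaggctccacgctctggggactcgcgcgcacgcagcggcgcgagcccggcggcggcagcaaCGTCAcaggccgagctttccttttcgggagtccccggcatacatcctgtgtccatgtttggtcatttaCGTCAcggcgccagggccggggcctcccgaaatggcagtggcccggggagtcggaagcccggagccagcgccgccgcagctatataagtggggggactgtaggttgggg
Npas4, chr19:4989972-4990221, minus strand: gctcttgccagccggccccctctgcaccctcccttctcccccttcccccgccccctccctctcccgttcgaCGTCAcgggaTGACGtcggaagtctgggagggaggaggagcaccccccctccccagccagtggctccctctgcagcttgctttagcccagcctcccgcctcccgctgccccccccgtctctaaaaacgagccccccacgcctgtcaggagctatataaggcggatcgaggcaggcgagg
Dusp1, chr17:26508473-26508722, minus strand: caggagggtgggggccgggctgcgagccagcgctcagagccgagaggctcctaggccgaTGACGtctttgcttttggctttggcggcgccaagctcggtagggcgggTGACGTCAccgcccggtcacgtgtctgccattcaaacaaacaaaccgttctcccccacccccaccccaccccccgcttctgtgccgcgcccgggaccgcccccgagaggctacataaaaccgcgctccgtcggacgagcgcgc
Dusp1 alone of the 4 held the full element, whose first base lies 143 bases before the start. In Npas4 the cores start 179 and 169 bases before it, and in Fos 129 and 66 bases. A match describes these letters only, and the binding of CREB was not measured.

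Genes of the stress hormone response were mixed. Of 14 glucocorticoid receptor and target genes 1 rose and 2 fell, with a median of -0.003. Sgk1, a kinase gene induced by glucocorticoids, gave 3393, 3436 and 3397 in susceptible mice, against 2458 and 2623 in control mice. The groups were separate and the change was 0.42 ± 0.06 (adjusted p = 0.000145). Hsd11b1, whose enzyme regenerates active corticosterone, gave 759, 729 and 683 in susceptible mice and 940.3 and 896 in control mice, a change of -0.34 ± 0.07 (adjusted p = 0.00563). The sulfotransferase gene Sult1a1 changed by -0.26 ± 0.06. Sgk1 kept its call when either control array was left out. Hsd11b1 lost it without control replicate 1, and Sult1a1 lost it when either was left out. Fkbp5 at 0.14 ± 0.08, Per1 at -0.22 ± 0.09 and Tsc22d3 at 0.06 ± 0.10, also targets of the receptor, were not called. Crhr1, the gene of the main receptor for corticotropin-releasing hormone, was on no list and was picked after its value was seen. It gave 134, 130.1 and 147 in susceptible mice, against 182 and 199 in control mice, a change of -0.47 ± 0.09 (adjusted p = 0.00227). Its call with an array left out is not given.

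Of 13 clock genes 3 fell and none rose. They were Arntl, which encodes the core activator BMAL1 (-0.42 ± 0.08), and the repressors Bhlhe40 (-0.37 ± 0.08) and Cry2 (-0.31 ± 0.09). Arntl gave 389, 389 and 414 in susceptible mice, against 554 and 512 in control mice. With table position as a term Arntl was still called (adjusted p = 0.0134), and Bhlhe40 and Cry2 were not (adjusted p = 0.0524 and 0.0874). With control replicate 1 left out none of the 3 was called, and with control replicate 2 or susceptible replicate 2 left out 1 was. Of 18 cholesterol genes 14 lay above 0 and 1 was called, Fdps, which makes farnesyl diphosphate (0.43 ± 0.07, adjusted p = 0.000576). None of 8 interferon genes and none of 65 respiratory chain genes was called. Of 52 ribosomal genes Rps26 rose (0.29 ± 0.07). Of 31 proteasome genes 24 lay above 0 and 2 rose (6.45%), Psmb10 (0.29 ± 0.07) and Psmb4 (0.23 ± 0.07). Among all 8419 genes tested 4297 lay above 0 and 4.88% were called. Of 20 heat shock genes 2 fell, Hspa1a (-0.26 ± 0.07) and Hspa2 (-0.26 ± 0.07). The calls of the ribosomal, proteasome and heat shock genes were lost when either control array was left out. Psmb10 also lost its call without susceptible replicate 2 or 3, and Hspa1a without susceptible replicate 2. Psmb4 and Hspa2 lost theirs without any 1 susceptible array. With table position as a term Psmb10, Psmb4, Hspa1a and Hspa2 lost their calls (adjusted p = 0.0989, 0.116, 0.0674 and 0.0728). Fdps kept its call in each case. The reference genes Gapdh (-0.12 ± 0.06), Actb (0.13 ± 0.07) and B2m (-0.18 ± 0.08) were not called.

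Synaptic genes changed in both directions, and few channel genes were called. The share called was 20% of glutamate receptor subunits and 16.7% of GABA receptor subunits and of vesicle genes. It was 2.78% of voltage-gated channel genes, beside 4.88% of all genes. Of 10 glutamate receptor subunits Grik1 rose (0.27 ± 0.07) and Gria4 fell (-0.35 ± 0.09). Of 6 GABA receptor subunits 1 rose, Gabbr1, a subunit of the metabotropic receptor (0.32 ± 0.06, adjusted p = 0.00385). Of 36 voltage-gated channel genes 1 rose, Kcnip4, a potassium channel partner (0.24 ± 0.07). Of 18 vesicle genes Cplx2, which encodes complexin and clamps vesicle fusion, rose (0.35 ± 0.07), while Syngr1 (-0.32 ± 0.09) and Rims3 (-0.28 ± 0.08) fell. Without control replicate 1 only Gabbr1 kept its call among these 7 genes, and without control replicate 2 none did. With table position as a term Gabbr1 and Cplx2 kept their calls, and Grik1, Gria4, Kcnip4, Syngr1 and Rims3 did not (adjusted p = 0.0621, 0.16, 0.119, 0.133 and 0.063). Each of these 5 also lost its call when at least 1 susceptible array was left out: Grik1 and Rims3 without replicate 1 or 3, Gria4 and Syngr1 without replicate 2 or 3, and Kcnip4 without any 1 of the 3. Of the other detected probes of Syngr1, 1 changed by 0.01 (unadjusted p = 0.858) and 1 by -0.33. Gene ontology lists that the study had drawn from these arrays were not independent of them: 6 of 12 synaptic transmission genes, 3 of 8 cognition genes and 2 of 5 synaptic plasticity genes fell, and 4 of 8 ensheathment genes and 4 of 6 gliogenesis genes rose. With 1 right array left out, 0 to 2 of the ensheathment genes, 1 to 3 of the gliogenesis genes, 0 to 4 of the cognition genes and 2 to 6 of the synaptic transmission genes were called, each lowest without a control array. In those lists the fallers included Adcyap1, the gene of the neuropeptide PACAP (-0.35 ± 0.08), and the risers included Sox5, a transcription factor gene of deep layer neurons and glia (0.30 ± 0.08), which lost its call with table position as a term (adjusted p = 0.068).

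Outside the lists, Sla, an adaptor protein gene of receptor signaling, gave 599.9, 577 and 605 in susceptible mice, against 380.3 and 323 in control mice. The groups were separate, and the change was 0.76 ± 0.08 (adjusted p = 3.14e-07). Sema5a, an axon guidance gene, gave 1449.8, 1463 and 1391 in susceptible mice, against 926 and 955 in control mice, a change of 0.61 ± 0.07 (adjusted p = 9.89e-07), and a second detected probe of it changed by 0.59. Zfpm2, a transcriptional cofactor gene, changed by 0.55 ± 0.07 and Prss35, a serine protease-like gene, by 0.58 ± 0.09. Pdzrn3, a ubiquitin ligase gene, gave 785, 761 and 826 in susceptible mice, against 1407 and 1389 in control mice, a change of -0.82 ± 0.09 (adjusted p = 6.59e-07). Its dimmer probe changed by -0.42. Marcksl1, an actin-regulating gene, gave 394, 337 and 371 in susceptible mice, against 596 and 601 in control mice, a change of -0.71 ± 0.08 (adjusted p = 3.75e-06). Its dimmer probe changed by -0.17, with an unadjusted p of 0.0501. Abcc10, a dim transporter gene, gave 132, 131 and 100 in susceptible mice, against 168 and 229.6 in control mice, and the control arrays differed from each other more than the susceptible ones. Its change was -0.71 ± 0.12 (adjusted p = 0.000448), and the call was lost without control replicate 2 (adjusted p = 0.0687). Dimmer probes also gave smaller changes for Anln (0.27), Tle4 (0.23 and 0.18), Igfbp2 (-0.16), Pdyn (-0.22), Hspa2 (-0.08) and Cacng3 (-0.16), and a larger one for Dusp6 (-0.51). Of the 411 called genes 107 had a further detected probe, and in 22 of these a probe had the other sign, in 7 with an unadjusted p below 0.05.

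Genes of neuronal signaling also stood among the called genes of neither rule nor list, and were picked after their values were seen. The muscarinic receptor gene Chrm2 rose by 0.38 ± 0.07, the glycine receptor subunit gene Glra2 by 0.45 ± 0.08, the orexin receptor gene Hcrtr1 by 0.34 ± 0.08 and Nos1ap, an adaptor of neuronal nitric oxide synthase, by 0.48 ± 0.10. Lower in susceptible mice were Nlgn1, a postsynaptic adhesion gene (-0.50 ± 0.10), Slc12a5, the gene of the neuronal chloride exporter KCC2 (-0.45 ± 0.11), and Cacng3, an auxiliary subunit of AMPA receptors (-0.44 ± 0.08). Slc12a5 gave 263, 223 and 241 in susceptible mice, against 284 and 382 in control mice, with control replicate 2 far above control replicate 1. It lost its call with table position as a term (adjusted p = 0.109). Calls with an array left out are not given for the genes of this paragraph.

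Whether the change against control differed between the hemispheres was tested as the right change minus the left change, which uses different arrays on each side. Of the 8419 genes 221 (2.63%) were called, and 117 of the 411 genes called on the right were among them, 57 of the higher and 60 of the lower ones. The right change is itself a term of this difference, so the count is not separate evidence of a right change. The sources do not say whether left and right arrays of one number come from the same animals. With a term for each such pair of arrays, an alternative added after seeing the data, 257 genes were called, 217 of them among the 221. In the layer 2/3 list 5 of 6 genes differed, and the left median was 0.24, against -0.59 on the right. Cux2 gave 687, 685 and 738 in left mPFC of susceptible mice, against 595 and 597 in left mPFC of control mice, so the left arrays of susceptible mice lay above their controls where the right ones lay below. The difference of the changes was -1.14 ± 0.12 (adjusted p = 1.45e-06). In the meningeal list 5 of 6 genes differed and the left median was 0.42. Dcn gave 308, 331 and 365 in left mPFC of susceptible mice, against 256 and 244 in left mPFC of control mice, a difference of -1.01 ± 0.10 (adjusted p = 5.34e-07).

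All 17 oligodendrocyte genes differed between the sides, with a left median of -0.48. Mog gave 459, 414 and 408 in left mPFC of susceptible mice, against 535 and 577 in left mPFC of control mice, and the difference was 0.89 ± 0.10 (adjusted p = 2.69e-06). Mbp, not called on the right, gave 12509, 12226 and 12121 in left mPFC of susceptible mice, against 18077 and 16834 in left mPFC of control mice, and its difference was 0.71 ± 0.09 (adjusted p = 1.59e-05). Of the 11 layer 6 genes 4 differed, and of the 11 layer 5 genes none did. The layer 5 genes Fezf2 and Crym, called higher on the right, had left changes of 0.22 and 0.23. Ctgf gave 1165, 1194 and 1159.8 in left mPFC of susceptible mice and 1329.5 and 1288 in left mPFC of control mice, and its difference of 1.06 ± 0.09 (adjusted p = 8.76e-08) was above 0.

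Blood genes and several activity genes were not called different between the sides. The left changes of Hba-a1, Hbb-bt and Alas2 were 1.08, 0.69 and 0.66, beside 0.81, 0.54 and 0.42 on the right. Hba-a1 gave 9645, 9855 and 8832 in left mPFC of susceptible mice and 4499 and 4436 in left mPFC of control mice, and the difference of its changes was -0.27 ± 0.11 (adjusted p = 0.233). Of the 5 called immediate early genes Egr2 and Egr4 were called different (-0.53 and -0.48), while Arc, Npas4 and Fos were not. Arc gave 1638, 1774 and 1572 in left mPFC of susceptible mice, against 2158 and 2238 in left mPFC of control mice, a left change of -0.41 beside -0.60 on the right, and the difference of -0.19 ± 0.10 was not called (adjusted p = 0.461). Dusp1 had a left change of -0.43, Sgk1 of 0.28 and S100b of -0.37, and none of the 3 differences was called.

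**Figure D3:**
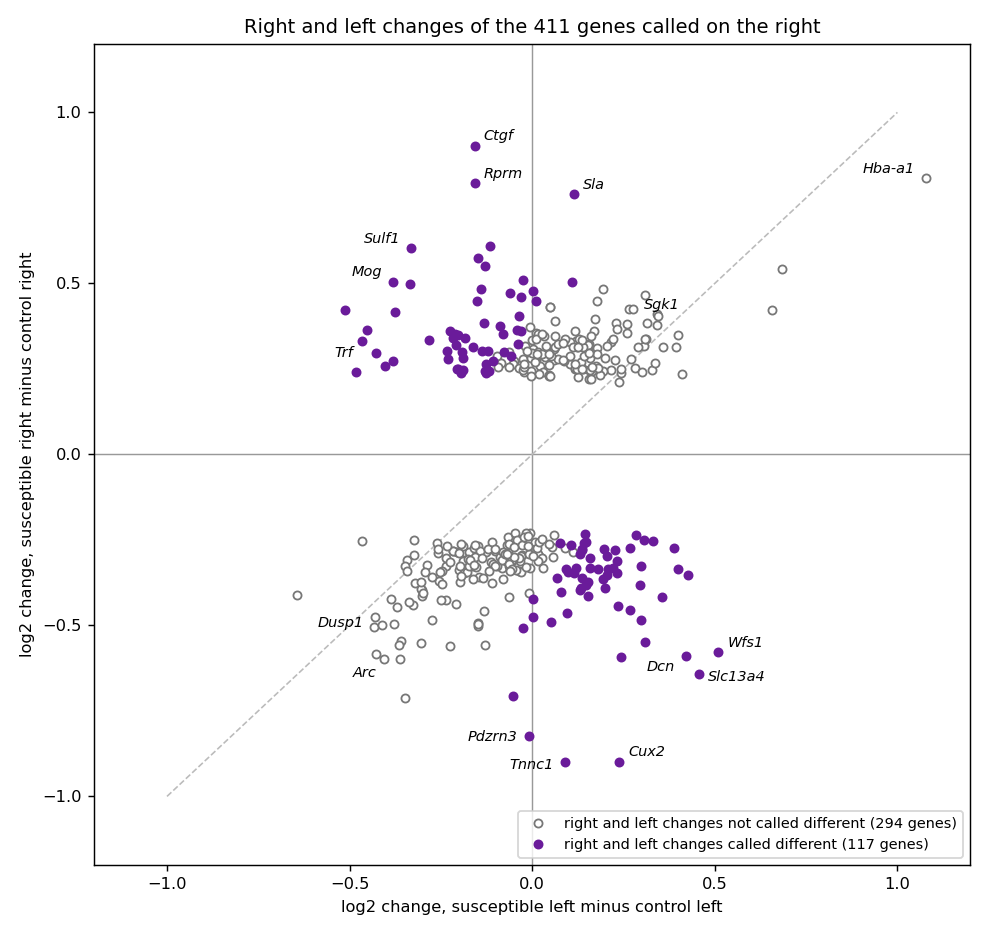
Log2 change in the right mPFC (vertical axis) against log2 change in the left mPFC (horizontal axis), both susceptible minus control, for the 411 genes called on the right. Filled points are the 117 genes whose changes were called different between the sides, open points the other 294, and the dashed line marks equal changes. Ctgf, Mog and Sulf1 lie above 0 on the right and below 0 on the left, Cux2, Wfs1 and Dcn the reverse, and Hba-a1, Arc and Dusp1 lie near the line. The absence of called points near 0 on the vertical axis comes from the choice of genes.

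The same 3 susceptible arrays were also set against right mPFC of resilient mice, which shared the defeat. In this comparison 70 genes (0.831%) were called, 22 higher and 48 lower in susceptible mice. The changes of both stressed groups against control rest on the same 2 control arrays and are given side by side as values only. Layer 2/3 and meningeal genes differed between the stressed groups. Cux2 gave 298, 385 and 327 in susceptible mice, against 486, 561 and 517 in resilient mice, a difference of -0.64 ± 0.08 (adjusted p = 1.35e-05), and resilient minus control was -0.26. Tnnc1 gave 537, 623 and 621 in resilient mice, and susceptible minus resilient was -0.68 ± 0.07 (adjusted p = 1.24e-06). Wfs1 at -0.51 and Nectin3 at -0.38 were also called, and Stard8 at -0.24 was not (adjusted p = 0.098). Dcn gave 187, 185 and 192 in susceptible mice, against 281, 267 and 288 in resilient mice, a difference of -0.57 ± 0.06 (adjusted p = 2.72e-06), while resilient minus control was -0.02. Slc13a4 at -0.61, Gjb2 at -0.55 and Igf2 at -0.29 were called too.

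Deep layer, oligodendrocyte and red blood cell genes were not called between the stressed groups. Ctgf gave 2155, 2297 and 2201 in susceptible mice and 2155, 2136 and 1999 in resilient mice, ranges that met at their ends, with a difference of 0.08 ± 0.06 (adjusted p = 0.614), and resilient minus control was 0.82. Mog at 0.01, Sla at 0.00, Hba-a1 at 0.12 and Dusp1 at -0.05 were not called. A p that misses the threshold does not show equal levels. Npas4 was lowest in resilient mice: it gave 242, 229.6 and 251 in susceptible mice, against 196, 194 and 205 in resilient mice, a called difference of 0.28 ± 0.06 (adjusted p = 0.029) with the sign opposite to its change against control. Xlr4a, a gene of an X-linked lymphocyte-regulated family whose copies may share probes, gave 358, 345 and 341 in susceptible mice, 489.8, 487 and 486 in resilient mice and 541 and 503 in control mice, and susceptible minus resilient was -0.49 (adjusted p = 2.04e-05). Nos1ap at 0.43, Stmn4 at 0.26, Tmem132d at 0.25 and Hsd17b11 at 0.32 were higher than in resilient mice as well as in control mice. Against control, a dimmer detected probe of Hsd17b11 changed by 0.08 (unadjusted p = 0.301), beside 0.45 for the brightest probe. A dimmer probe of Stmn4 changed by 0.22, beside 0.47.

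**Figure D4:**
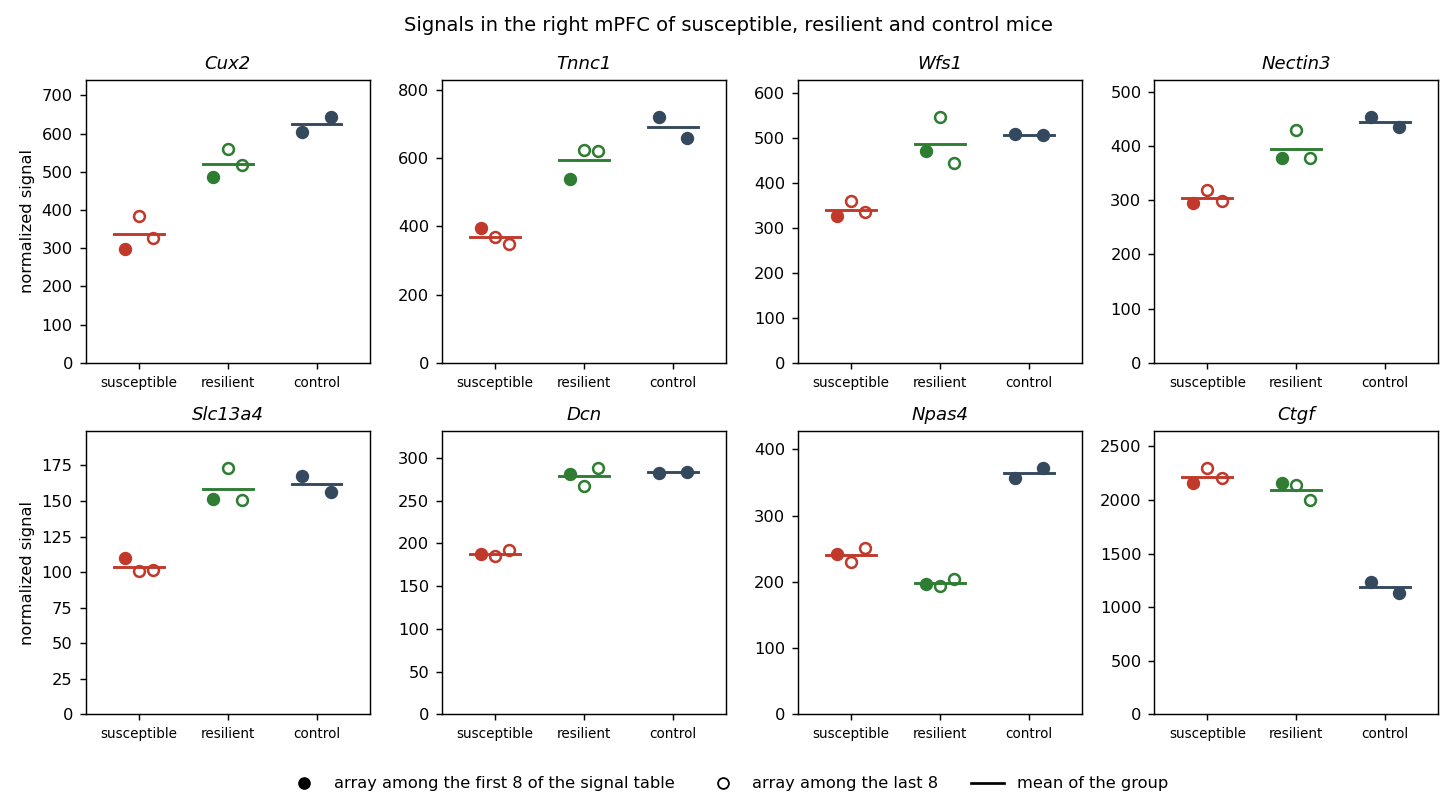
Normalized signals (vertical axis, linear scale from 0) of 8 genes on right arrays of susceptible (red), resilient (green) and control (dark blue) mice, with the group mean as a bar. Filled points are arrays among the first 8 of the signal table, open points arrays among the last 8. Cux2, Tnnc1, Wfs1, Nectin3, Slc13a4 and Dcn are lowest in susceptible mice, Npas4 is lowest in resilient mice, and Ctgf is higher in both stressed groups than on either control array.

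The place of an array in the signal table overlapped with the groups in part, and could be estimated because each stressed group has replicate 1 among the first 8 arrays and the others among the last 8. Position alone was called for 107 genes (1.27%), 62 of them higher in the first 8 arrays. Of the 411 genes called between susceptible and control right mPFC, 4 were also called for position, Cript, Sfr1, Tox3 and Nup93. In all 4 the sign of the position difference was the one that adds to their change, and none kept its call with position as a term. Among all 411 genes 275 had a position difference of that sign, significant or not. With position as a term 217 of the 411 remained called, 109 of the higher and 108 of the lower ones, all 411 kept their sign, and the median ratio of the change with the term to that without it was 0.94. Cux2 changed by -1.0 with the term and Ctgf by 0.89, beside -0.90 and 0.90 without it. All 5 called members of each of the layer 2/3, layer 6, meningeal and immediate early lists remained called, as did all 3 of the red blood cell list.

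Within the first 8 arrays alone, susceptible replicate 1 could be set against both control arrays, with its spread assumed to be that of the control arrays. There 324 genes were called, 217 of them among the 411, and 47 of the 70 named called genes were still called. All 411 genes kept their sign, which was fixed beforehand for the 409 whose susceptible and control arrays do not overlap. Susceptible replicate 1 is in both fits, so this is no independent support. Changes within the first 8 arrays were -1.07 for Cux2, -0.81 for Tnnc1, 0.86 for Ctgf, 0.71 for Rprm, 0.86 for Hba-a1 and -0.58 for Arc. Susceptible replicates 2 and 3 have no control array among the last 8, so a value within those could not be had.

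**Figure D5:**
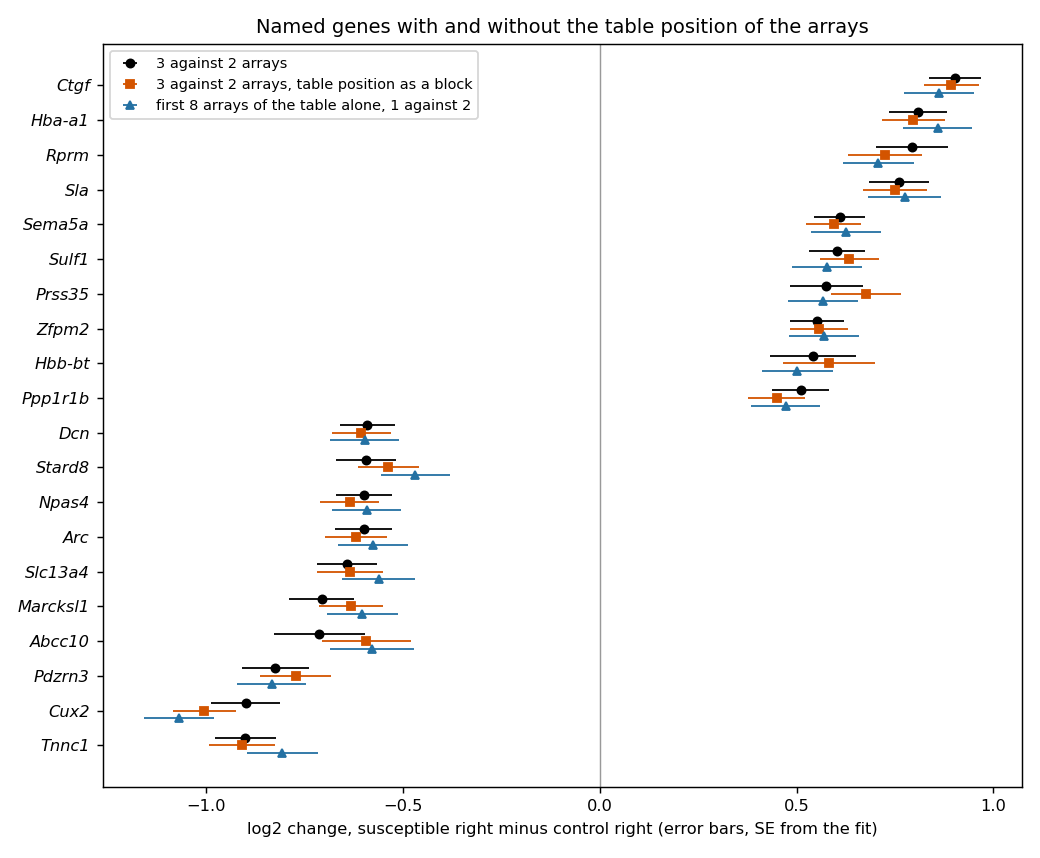
Log2 change (horizontal axis, susceptible right minus control right, error bars are standard errors of the fit) of the 10 genes with the largest called rise and the 10 with the largest called fall. Black circles use all arrays, orange squares add table position as a term, and blue triangles use the first 8 arrays alone, 1 susceptible against 2 control arrays. All 20 genes keep their sign, with Ctgf at 0.90, 0.89 and 0.86 and Cux2 at -0.90, -1.0 and -1.07. The genes were chosen without overlap of the groups, so their sign in the first 8 arrays alone was fixed by the choice.

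The count of called genes depended on the 2 control arrays and on the scaling. Without control replicate 1 there were 130 calls and without control replicate 2 there were 105, against 223 without susceptible replicate 2. Of the 70 named genes called, 41 were still called without control replicate 1 and 36 without control replicate 2. In all, 30 of the 70 kept their call under every alternative other than median scaling, among them Ctgf, Rprm, Sulf1, Mog, Anln, Cux2, Tnnc1, Wfs1, Stard8, Slc13a4, Dcn, Gjb2, Arc, Npas4, Fos, Dusp1, Sgk1, Sla and Hba-a1. When arrays were scaled only to the same median signal, the median change of all genes was -0.14, with 16 calls, 2 higher and 14 lower (12.5% higher, against 47.2%). Among the named genes those 16 included Ctgf and Hba-a1 above 0, and Cux2, Tnnc1, Wfs1, Pdzrn3, Marcksl1, Slc13a4, Dcn, Gjb2, Arc, Npas4 and S100b below 0.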

How the data were processed

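RNA of right and left mPFC was hybridized to Illumina MouseRef-8 v2 arrays. The authors read them with GenomeStudio 1.0.6 and deposited each probe's average signal, an intensity on a linear scale with background included. The deposited detection score runs from 0 to 1, and the detection p was taken as 1 minus this score. The authors also deposited log2 values normalized with lumi, whose version and method are not given in the sources used here. These values served as an alternative.

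The signals were log2 transformed and quantile normalized over the 16 arrays with limma 3.58.1 in R 4.3.3. Of 25697 probes, 11922 passed a detection p of 0.05 on all arrays. Each gene was represented by its brightest detected probe, and 700 detected probes without a symbol were left out. No probe carried several symbols. One model of 6 groups was fitted with lmFit and eBayes over all 16 arrays (10 residual and 16.0 prior degrees of freedom, prior SD 0.0826), and p values were adjusted by Benjamini-Hochberg over 8419 genes. Table position was added as a term in a second fit. No 2 arrays were identical, and the lowest correlation between arrays was 0.994.

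The comparison, gene lists and alternatives were chosen with earlier results of these data known. Named genes are the 10 largest called rises and falls without overlap, up to 3 called members of each list, and genes the study names. Further genes, such as Nectin3, Ntsr1, Tle4, Egr4, Ptgds, Crhr1, Xlr4a and members given as not called, were chosen after their values were seen. Alternatives covered normalization, background correction, probe filter, probes per gene, variance model, array weights, groups fitted, table position, replicate block and each array left out. The procedure was tested on simulated data. Figures were drawn with matplotlib in Python. Arrays carry no counts, so the number of arrays limits the precision.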

Additional observations from a re-analysis of the deposited data

Results flagged for a closer look

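The right change minus the left change, susceptible against control, was called at an adjusted p below 0.05 in 40 of the 74 named genes, 19 above and 21 below 0. In 37 of the 40 the changes on the right and on the left had opposite signs, but the left change was called in only 13 of the 37 and was over 2 standard errors from 0 in 25. The exceptions were Sla, Pdzrn3 and Marcksl1. Each value below is this difference on the log2 scale. It uses 3 susceptible and 2 control arrays per side.

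Among deep layer genes it was 1.06 for Ctgf, 0.95 for Rprm, 0.93 for Sulf1 and 0.44 for Sox5. Among oligodendrocyte genes it was 0.93 for Prr18, 0.89 for Mog, 0.83 for Anln, 0.82 for Fa2h, 0.80 for Trf, 0.72 for Cldn11, 0.71 for Mbp and 0.44 for Gal3st1. Ppp1r1b and Drd1 of the striatal list had 0.54 and 0.46, and Cplx2 had 0.56. Of the genes outside the lists, Sema5a had 0.73, Prss35 0.72, Zfpm2 0.68 and Sla 0.65.

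Below 0 it was -1.14 for Cux2, -1.09 for Wfs1, -0.99 for Tnnc1 and -0.84 for Stard8, all layer 2/3 genes. The meningeal genes had -1.10 for Slc13a4, -1.01 for Dcn, -0.78 for Gjb2 and -0.78 for Igf2. Pdzrn3 and Marcksl1 had -0.81 and -0.65. Neuropeptide and secreted factor genes had -0.54 for Vip, -0.53 for Pdyn, -0.50 for Vgf, -0.46 for Adcyap1 and -0.40 for Reln. The remaining genes were Egr2 at -0.53, Bhlhe40 at -0.53, Arntl at -0.42, Rims3 at -0.51, Hspa2 at -0.40 and Sult1a1 at -0.37.

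Among these called genes, layer 2/3 and meningeal members thus stood on one side of 0, and deep layer and oligodendrocyte members on the other. Deep layers as a whole did not follow: 4 of 11 layer 6 genes and none of 11 layer 5 genes were called different. What the layer 2/3, meningeal, deep layer and oligodendrocyte genes share was not tested.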

How the results depend on the processing

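Susceptible right against control right gave 411 calls. Scaling to a common median left 16, and a block for table position left 235. Leaving out each array in turn gave 105 to 329, with 105 without control right replicate 2, 130 without control right replicate 1 and 223 without susceptible right replicate 2. The other settings gave 293 to 501. The right minus left difference gave 221 calls, 11 with median scaling, and 124 to 194 with each array left out, all 4 values without a control array (134, 141, 124 and 142) being over 1.5 times lower. Susceptible against resilient right gave 70 calls, 7 with median scaling, 36 with only the groups compared, and 37 to 63 with each array left out, with 44, 46 and 38 without susceptible right replicates 1, 2 and 3 and 37 without resilient right replicate 3. Table position gave 107 calls, 6467 with median scaling, 12 with neqc background correction, 56 with the mean over probes, 226 with array weights, and 37 to 154 with each array left out, with 37 without susceptible right replicate 1. Median scaling moved the median position difference of all genes to 0.21. The cause of these shifts was not tested.

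None of the 70 named called genes changed sign under any of these settings. In 409 of the 411 called genes the susceptible and control arrays did not overlap. Leaving out a right array could not turn the sign of those genes. Between 36 and 70 were still called, except with median scaling, where 13 were. Deviations of susceptible and control right arrays of one number had correlations of 0.01 for number 1 and -0.02 for number 2, and with 2 control arrays these carry little information. Left and right arrays of one number correlated by 0.09 to 0.19 in susceptible, -0.02 to 0.34 in resilient and 0.01 in control mice, so not every pair passed 0.1. Every susceptible right array correlated best with the left array of its own number. The fit with a replicate block gave 451 calls, and the right minus left difference gave 249 with it and 257 with left and right arrays of one number as a replicate block, an alternative added after seeing the data. With 2 control arrays, calls near the threshold are the least certain, and the unsubtracted background makes the changes of dim genes too small.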
